A study of Mus musculus with 14 samples.

Results

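The comparison is between 4 lungs that had received virgin carbon fibre (VCF, fibre that had not been recycled) and 3 lungs that had received phosphate-buffered saline (Ctrl), taken from male C57BL/6N mice 6 months after 1 intratracheal dose. The fibre dose was 200 µg per mouse. The groups are those of the sample titles, and the 7 arrays belong to a series of 14, in which 3 lungs had carbonized fibre (CCF) and 4 had fired fibre (RCF) at the same dose and time. All mice were of 1 strain and sex, their age is not given in the labels, and each array held total RNA of 1 lung sample. The question addressed is which transcripts of the lung differ from saline at that late time.

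Inhaled or instilled fibres are handled in the alveoli chiefly by resident macrophages, which engulf short fibres and are known to release chemokines that draw in monocytes and neutrophils. Long-lasting fibres are known in rodents for inflammation, oxidative stress and scarring, in which metal-binding metallothioneins, targets of the antioxidant factor Nrf2, matrix proteins and their proteases take part. A whole lung also holds blood, vessels, airway epithelium and, at its root, cardiac muscle of the pulmonary veins and fat, whose RNA is measured with the rest.

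Levels are log2 intensities relative to the 75th percentile of the same array, so a level of 0 equals that percentile, and differences are VCF minus Ctrl. The 75th percentile lay between 724.7 and 1345.6 intensity units per array, 63.07 to 70.5% of probes stood well above background, and no spot was saturated. The lung markers were at the top of the scale in both groups: Sftpc, surfactant protein C of alveolar type 2 cells, was at 9.30, 9.24, 8.87 and 8.87 in VCF lungs and at 9.44, 8.75 and 8.77 in Ctrl lungs. Scgb1a1, the secretoglobin of club cells, differed by 0.03 ± 0.15 (SE) and Ager, a marker of alveolar type 1 cells, by 0.04 ± 0.25. Slides 1, 2 and 3 held both groups, whereas VCF replicate 1 was on a slide without a Ctrl array.

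Of 29269 probes tested, 3 passed the adjusted threshold (0.0102%), all higher in VCF lungs. They were an olfactory receptor gene, Olfr1495, and probes for the unnamed transcripts AK147967 and ENSMUST00000098674. That count was 0 without any 1 Ctrl array, without VCF replicate 1, 3 or 4 or without RCF replicate 1 or 3, 1 without RCF replicate 2, 7 without CCF replicate 3 and 16 without CCF replicate 1. Without adjustment, p was under 0.05 and the value higher in VCF for 1774 probes (6.06%) and lower for 643 (2.2%), against 1463 in all that chance alone would give. With arrays scaled by their median in place of the 75th percentile the split was 1051 higher and 1857 lower, and with quantile normalization it was 1312 and 1129. Median scaling moved the median difference of all probes to -0.11, from 0.01. The arrays of the groups were apart, VCF above for 6.02% of probes and below for 2.66%, and 52.3% of probes had a difference above 0. Over the 14468 genes, each read at its brightest probe, 1 passed the adjusted threshold (0.00691%), 45.8% had a difference above 0, 2.63% were higher and 2.79% lower at an unadjusted p under 0.05, all VCF arrays lay above all Ctrl arrays for 3.31% and below them for 3.25%, and the median difference was -0.02. These shares are the background for the gene groups below. No member of any group passed the adjusted threshold at its brightest probe, so the groups are described by values and counts.

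Red blood cell genes had higher values in VCF lungs. Of 19 genes listed, 17 had a probe bright enough to test and 16 of those were higher, 8 at an unadjusted p under 0.05 and 7 with the arrays of the groups apart, with a median difference of 0.79. Hba-a1, an adult alpha globin, was at 8.41, 8.49, 8.48 and 8.64 in VCF lungs and at 6.76, 7.20 and 6.30 in Ctrl lungs. The 4 VCF lungs lay within 0.24 of each other and all above the Ctrl lungs, and the difference was 1.75 ± 0.30 (SE; limma adjusted p = 0.146). Alas2, the erythroid form of the enzyme that starts haem synthesis, was at 3.20, 3.77, 3.69 and 4.21 in VCF lungs and at 1.57, 2.06 and 0.71 in Ctrl lungs, a difference of 2.27 ± 0.45 (limma adjusted p = 0.17). Bpgm, bisphosphoglycerate mutase, whose product lowers the oxygen affinity of haemoglobin, was at 2.67, 2.76, 3.15 and 3.19 in VCF lungs and at 2.04, 2.37 and 2.22 in Ctrl lungs, a difference of 0.73 ± 0.20 (limma adjusted p = 0.32). In all 3 genes the groups did not overlap. In bulk lung, a different number of cells of a type and a different amount of RNA per cell cannot be told apart.

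Hbb-bt, an adult beta globin, was read by 4 probes, all higher in VCF lungs with the groups apart, but by unequal amounts. The brightest differed by 0.84 ± 0.23 and the least bright by 2.49 ± 0.38 (limma adjusted p = 0.085). That least bright probe stood at 6.52, 6.97, 6.63 and 6.76 in VCF lungs and at 4.52, 4.52 and 3.65 in Ctrl lungs. The globin copies are nearly identical in sequence, and these probes may not separate them. With plain background subtraction, an alternative chosen after seeing the data, 5 probes passed. Among them were that Hbb-bt probe (2.62, limma adjusted p = 0.0192), Hba-a1 (1.88, limma adjusted p = 0.0228) and AK147967 (1.985, limma adjusted p = 0.0335). Olfr1495 (0.89, limma adjusted p = 0.538) and ENSMUST00000098674 (1.231, limma adjusted p = 0.17) did not pass. Over all alternatives the adjusted p of that Hbb-bt probe ran between 0.0051 and 1, that of Hba-a1 between 0.0103 and 1. Transcription factors of red cell precursors differed less: Klf1, the erythroid Krüppel-like factor, differed by -0.25 ± 0.32 and Gata1 by 0.36 ± 0.31. Within the 3 slides that held both groups, 9 of the 17 genes were higher on every one, and the list's median was 1.19, 1.10 and 0.56. In CCF and RCF lungs, set against the same Ctrl arrays, the list's medians were 0.42 and 0.40.

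Promoters of 3 of these genes, from RefSeq (GRCm38.p6, from before to just after the gene's start), are shown because their transcripts had higher values in the same lungs; other genes of the list have entries too, and these were chosen after their values were seen. Capitals mark AGATAA, a form of the site bound by GATA factors, CACCC, the box bound by Krüppel-like factors, and TATAAA, on either strand. Other forms of the GATA site were not searched, and the TGATAA in Hba-a1 is unmarked. In the table, 11.2% of 32851 promoters hold AGATAA, 57.5% CACCC and 13.6% TATAAA. Alas2 (chrX:150547167-150547466 on the plus strand), Hba-a1 (chr11:32283422-32283721 on the plus strand) and Hbb-bt (chr7:103813874-103814173 on the minus strand) read, 5′ to 3′:
Alas2: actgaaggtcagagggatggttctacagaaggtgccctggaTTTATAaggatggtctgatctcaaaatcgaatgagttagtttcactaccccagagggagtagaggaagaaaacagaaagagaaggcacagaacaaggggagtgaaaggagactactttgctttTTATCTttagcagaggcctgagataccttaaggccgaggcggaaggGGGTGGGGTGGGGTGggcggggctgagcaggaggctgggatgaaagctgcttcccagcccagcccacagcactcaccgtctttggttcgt
Hba-a1: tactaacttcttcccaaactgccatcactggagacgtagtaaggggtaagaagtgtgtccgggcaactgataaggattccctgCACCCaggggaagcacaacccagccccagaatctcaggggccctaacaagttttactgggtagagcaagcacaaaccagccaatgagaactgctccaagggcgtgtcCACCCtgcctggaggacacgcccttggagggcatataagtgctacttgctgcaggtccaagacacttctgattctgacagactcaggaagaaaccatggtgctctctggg
Hbb-bt: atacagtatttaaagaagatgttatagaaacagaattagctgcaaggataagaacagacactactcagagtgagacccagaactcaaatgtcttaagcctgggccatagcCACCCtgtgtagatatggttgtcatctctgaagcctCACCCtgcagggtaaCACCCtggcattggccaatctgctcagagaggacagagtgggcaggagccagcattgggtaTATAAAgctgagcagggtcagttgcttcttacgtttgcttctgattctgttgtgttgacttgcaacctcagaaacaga
CACCC occurred 3 times in Alas2, as an adjoining run on the opposite strand, 2 times in Hba-a1 and 3 times in Hbb-bt, and AGATAA once, in Alas2. A match describes the letters only. Of 175 named genes, 124 had an entry in the table.

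**Figure D1:**
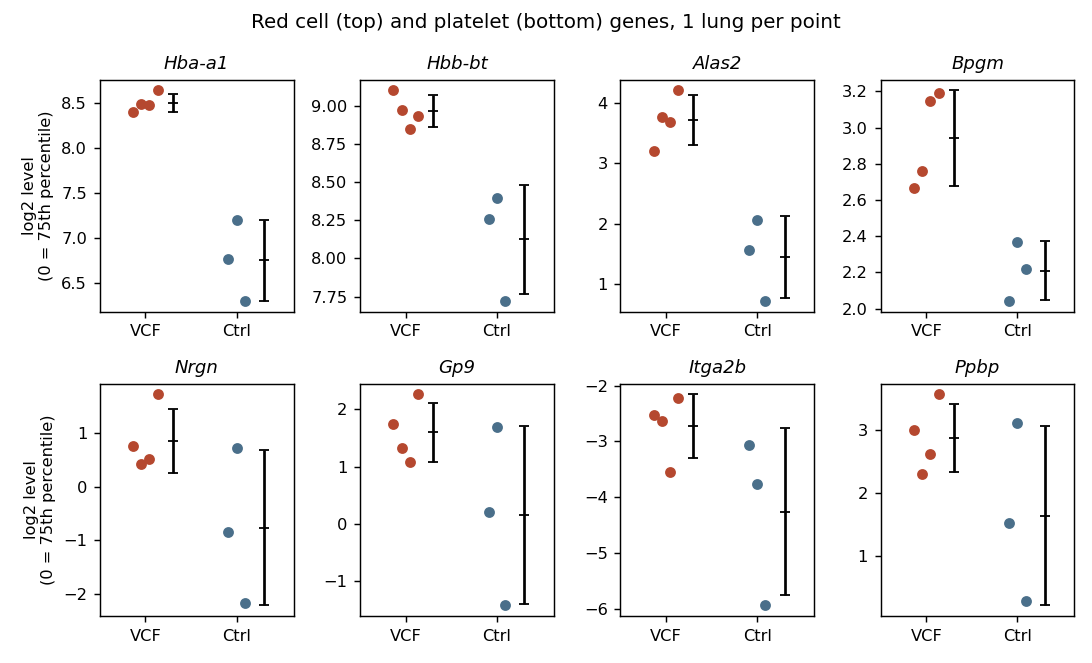
Log2 level (y axis, 0 is the array's 75th percentile) of 4 red cell genes (top) and 4 platelet genes (bottom), each gene at its brightest probe; 1 point per lung, with bars giving the mean ± SD of 4 VCF and 3 Ctrl lungs. The red cell genes of VCF lungs lie above all Ctrl lungs, whereas for each platelet gene 1 Ctrl lung lies among the VCF lungs (replicate 1 for Itga2b, replicate 2 for the others) and Ctrl replicate 3 is lowest.

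Platelet and megakaryocyte genes were also higher on average, with 13 of 14 tested above 0, 6 of them at an unadjusted p under 0.05, and a median difference of 1.05, but no gene had its groups apart. Nrgn, neurogranin, found in platelets as well as neurons, was at 0.77, 0.42, 0.51 and 1.73 in VCF lungs and at -0.84, 0.72 and -2.18 in Ctrl lungs (1.62 ± 0.60, limma adjusted p = 0.465). Itga2b, the platelet integrin subunit, was at -2.52, -2.63, -3.55 and -2.23 in VCF lungs and at -3.06, -3.77 and -5.93 in Ctrl lungs. Within the 3 slides that held both groups, 13 of the 14 genes were higher on every one, and the list's median was 1.74, 0.57 and 0.52. Ctrl replicate 3 was the lowest of the 7 lungs for 13 of the 14 genes. Without it the list's median was 0.47, and without Ctrl replicate 2, 1.65. Gp5 and Gp1bb, glycoproteins of the von Willebrand factor receptor complex, differed by 1.15 ± 0.44 and 1.06 ± 0.40. The medians of CCF and RCF lungs against the same Ctrl arrays were 1.05 and 0.85.

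Metallothioneins and Nrf2 targets had lower values in VCF lungs. Of 24 genes tested 21 were lower, 5 at an unadjusted p under 0.05 and 2 with the groups apart, with a median of -0.24, or -0.15 without Ctrl replicate 1. Mt2, which binds zinc and copper, was at 3.95, 3.80, 3.85 and 3.70 in VCF lungs and at 4.83, 4.49 and 4.30 in Ctrl lungs. All VCF lungs lay below all Ctrl lungs (-0.71 ± 0.18, limma adjusted p = 0.307). Mt1 was at 4.32, 3.85, 3.96 and 3.90 in VCF lungs and at 4.48, 4.24 and 4.58 in Ctrl lungs, with overlap (-0.43 ± 0.20). Hmox1, the inducible haem oxygenase, was at 2.25, 2.20, 2.48 and 2.29 in VCF lungs and at 3.15, 2.62 and 2.57 in Ctrl lungs (-0.48 ± 0.14, limma adjusted p = 0.351), the groups apart. Srxn1, sulfiredoxin, differed by -0.39 ± 0.16 and Osgin1, an oxidative stress growth inhibitor, by -0.37 ± 0.13. Mt2 stood at -0.89 in CCF and -1.16 in RCF lungs against the same Ctrl arrays.

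The promoters of both metallothionein genes are shown since they are known to hold metal response elements. Capitals mark TGCNCNC, a loose form of that element's core, on either strand, which 51.0% of the promoters in the table hold. Mt1 (chr8:94178839-94179138 on the plus strand) and Mt2 (chr8:94172368-94172667 on the plus strand) read, 5′ to 3′:
Mt1: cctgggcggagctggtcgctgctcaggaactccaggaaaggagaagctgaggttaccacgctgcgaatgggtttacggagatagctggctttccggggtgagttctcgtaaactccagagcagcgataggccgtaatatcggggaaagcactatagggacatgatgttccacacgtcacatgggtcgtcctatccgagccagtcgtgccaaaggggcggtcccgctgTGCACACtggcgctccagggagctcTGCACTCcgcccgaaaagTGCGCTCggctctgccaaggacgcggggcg
Mt2: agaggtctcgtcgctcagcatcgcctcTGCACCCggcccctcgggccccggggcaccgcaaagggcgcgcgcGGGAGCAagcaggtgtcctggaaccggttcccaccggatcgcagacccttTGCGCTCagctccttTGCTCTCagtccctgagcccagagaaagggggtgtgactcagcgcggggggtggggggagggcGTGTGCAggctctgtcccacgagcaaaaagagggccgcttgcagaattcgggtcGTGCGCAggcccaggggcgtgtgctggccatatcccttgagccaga
The letters occurred 3 times in Mt1 and 6 times in Mt2. TATAAA was searched in both and had no match in the letters shown, and sequence beyond them was not searched.

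Genes of iron and haem handling were lower in 17 of 22 cases, 3 at an unadjusted p under 0.05, with a median of -0.11, or -0.18 without VCF replicate 1. Steap3, a ferrireductase of endosomes, was at -4.88, -5.00, -4.80 and -4.77 in VCF lungs and at -3.95, -4.41 and -4.35 in Ctrl lungs, the groups apart (-0.63 ± 0.15, limma adjusted p = 0.284). It stood at -0.10 in CCF and -0.13 in RCF lungs against the same controls. Blvra, biliverdin reductase, which acts after haem oxygenase, differed by -0.24 ± 0.10.

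Markers of alveolar macrophages were lower in 15 of 17 cases, 4 at an unadjusted p under 0.05 and all 4 with the groups apart, with a median of -0.30. Pparg, the nuclear receptor that alveolar macrophages need to mature, was at 1.44, 1.26, 1.47 and 1.50 in VCF lungs and at 1.70, 1.73 and 1.73 in Ctrl lungs (-0.30 ± 0.10, limma adjusted p = 0.409). Krt79, a keratin of these cells in mouse, was at 0.81, 1.19, 0.76 and 0.91 in VCF lungs and at 1.53, 1.62 and 1.33 in Ctrl lungs (-0.58 ± 0.18). Plet1 differed by -0.36 ± 0.14 and Krt19, also an epithelial and mesothelial keratin, by -0.47 ± 0.16. Other members differed little: Chil3, a chitinase-like protein, by -0.12 ± 0.15 and Spp1, osteopontin, by 0.04 ± 0.23. Marco, a scavenger receptor for particles, was at 2.84, 2.16, 3.07 and 2.76 in VCF lungs and at 3.99, 3.15 and 2.06 in Ctrl lungs, a spread in Ctrl that held all of VCF. Within slides 1, 2 and 3 the list's median was -0.27, -0.22 and -0.39. In CCF and RCF lungs, set against the same Ctrl arrays, the list's medians were -0.44 and -0.24.

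Interstitial macrophage and monocyte genes were lower in 17 of 18 cases, 3 at an unadjusted p under 0.05, with a median of -0.39, or -0.63 without Ctrl replicate 3. The sign was not the same on all slides: the median was 0.24 on slide 1, -0.29 on slide 2 and -0.77 on slide 3. Cd14, the co-receptor for bacterial lipopolysaccharide, was at 2.72, 2.77, 2.49 and 2.56 in VCF lungs and at 3.32, 3.33 and 2.93 in Ctrl lungs, the groups apart (-0.56 ± 0.15, limma adjusted p = 0.336). Ly6c1 differed by -0.49 ± 0.14 and Ly6c2 by -0.41 ± 0.15, the second with overlap. Among phagocyte lysosome and lipid genes, 19 of 23 were lower, with a median of -0.17 (-0.11 without Ctrl replicate 1), and Lgals3, galectin-3, differed by -0.44 ± 0.18.

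Genes of chemokines, interferon response, complement and inflammasome had medians below 0. CC chemokines were lower in 13 of 17 cases with a median of -0.33, which was -0.17, -0.04 and -0.59 without Ctrl replicates 1, 2 and 3. Ccl17, a ligand of the receptor Ccr4, was at 1.32, 1.00, 1.87 and 0.83 in VCF lungs and at 2.62, 1.82 and 1.39 in Ctrl lungs (-0.69 ± 0.32). Ccl2, the main monocyte attractant, differed by -0.35 ± 0.28. Interferon response genes were lower in 21 of 26 cases, with a median of -0.32, or -0.19 without Ctrl replicate 1 and -0.21 without VCF replicate 2. Signs differed between slides: on slides 1, 2 and 3 the interferon median was 0.29, -0.18 and -0.57, that of CC chemokines 0.37, -0.42 and -0.34, and that of killer lymphocyte genes 0.98, -0.01 and -1.36. Ifit3 differed by -0.47 ± 0.16 with the groups apart. Neutrophil genes had a median of -0.38, but Ctrl replicate 1 was far above the rest with a mean of 1.25 over the list, and without it the median was 0.37. Its medians on slides 1, 2 and 3 were 0.65, 0.35 and -1.85. Il1b, interleukin 1 beta, was at 1.67, 1.32, 1.67 and 1.81 in VCF lungs and at 3.84, 1.34 and 0.49 in Ctrl lungs. Complement genes were lower in 16 of 19 cases (median -0.25, or -0.38 without VCF replicate 4). Inflammasome and innate cytokine genes had a median of -0.22 (-0.03 without Ctrl replicate 1), with 0.03, -0.04 and -0.61 on the 3 slides, and killer lymphocyte genes one of -0.24 that reached 0.01 without Ctrl replicate 1.

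**Figure D2:**
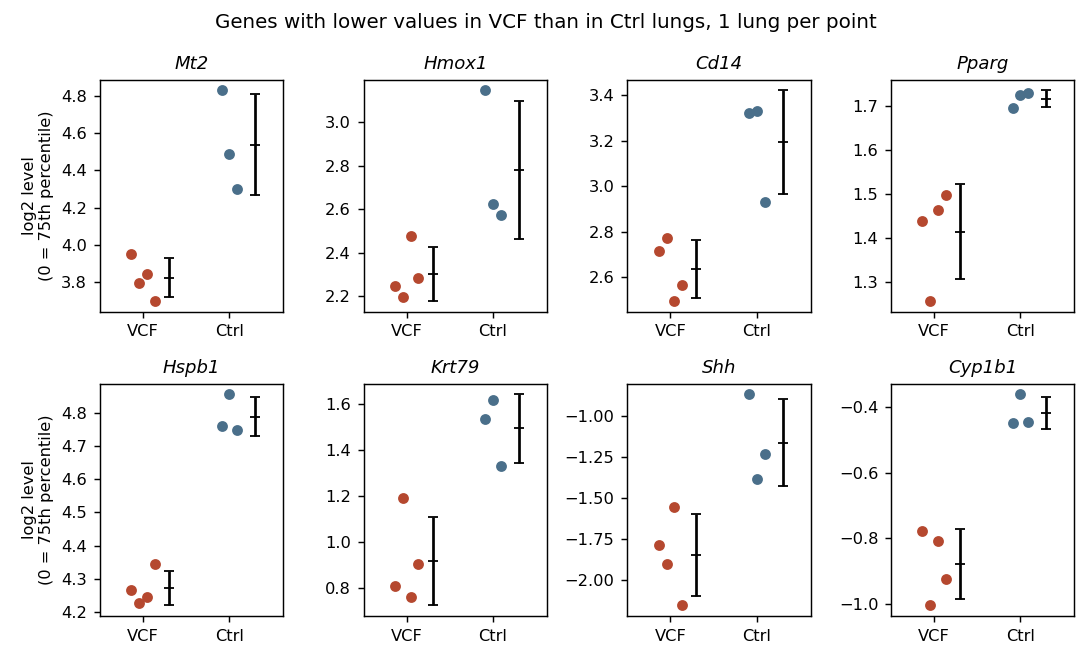
Log2 level (y axis, 0 is the array's 75th percentile) of 8 genes in VCF and Ctrl lungs; 1 point per lung, with bars giving the mean ± SD of 4 VCF and 3 Ctrl lungs. In each gene all VCF lungs lie below all Ctrl lungs, though none passed the adjusted threshold.

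Heat shock genes were divided. Of 15, 10 were higher and 5 lower, with a median of 0.04. Hspa1a, an inducible 70 kDa chaperone, was at 2.74, 3.26, 2.50 and 3.37 in VCF lungs and at 1.66, 1.04 and 1.82 in Ctrl lungs, the groups apart (1.46 ± 0.48, limma adjusted p = 0.4). Hspa1b, nearly identical in sequence, differed by 1.44 ± 0.53, and Dnajb1, a co-chaperone of both, by 0.56 ± 0.22. Hspb1, a small heat shock protein, was lower, at 4.27, 4.23, 4.25 and 4.35 in VCF lungs and at 4.76, 4.86 and 4.75 in Ctrl lungs (-0.52 ± 0.19, limma adjusted p = 0.465). It stood at -0.03 in CCF and -0.48 in RCF lungs against the same controls.

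Among 15 genes of cytochrome P450s and the aryl hydrocarbon receptor, 10 were lower, with a median of -0.24, or -0.06 without Ctrl replicate 3 and -0.11 without VCF replicate 3. Cyp1b1, a target of that receptor, was at -0.78, -1.01, -0.81 and -0.93 in VCF lungs and at -0.45, -0.36 and -0.44 in Ctrl lungs (-0.46 ± 0.11, limma adjusted p = 0.294). Cyp2b10 differed by -0.48 ± 0.15. Cyp1a1, the classic target, ran from -3.89 to -1.11 in VCF lungs, while Ctrl replicate 1 stood at 1.21 and the other Ctrl lungs at -3.04 and -2.91. Of 19 clock genes, Arntl, the positive arm of the clock, differed by 0.39 ± 0.15 and its partner Clock by 0.36 ± 0.15, while Per2 differed by -0.03 ± 0.18.

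Col1a1 and Col3a1, the main fibrillar collagens, differed by -0.07 ± 0.27 and -0.16 ± 0.21 at their brightest probes. A second Col1a1 probe differed by -0.46 ± 0.23, with the groups apart. In all, the 20 collagen genes had a median of -0.08, with 0 at an unadjusted p under 0.05 in limma, and the median turned to 0.02 without Ctrl replicate 1 or without Ctrl replicate 2. Eln, elastin, was at -0.91, -0.85, -0.18 and -0.75 in VCF lungs and at 0.78, 0.00 and -0.16 in Ctrl lungs (-0.88 ± 0.28, limma adjusted p = 0.395). Timp1, an inhibitor of matrix proteases, was at 1.79, 1.36, 2.14 and 2.16 in VCF lungs and at 3.103, 3.24 and 2.03 in Ctrl lungs (-0.93 ± 0.35), with overlap. Mmp12, the elastase of macrophages, differed by -0.67 ± 0.31. Tgfb2, a growth factor of the TGF-beta family, was higher in all VCF lungs (0.45 ± 0.15) and Bmp4 was lower in all of them (-0.52 ± 0.21). The 28 cell division genes were all lower, by a median of -0.25, though 0 had an unadjusted p under 0.05. That median was 0.22 on slide 1, -0.23 on slide 2 and -0.75 on slide 3, and it was -0.49 without Ctrl replicate 3.

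Smooth muscle genes were higher in 13 of 14 cases with a median of 0.21. Mylk, myosin light chain kinase, was at 4.22, 4.24, 4.16 and 4.01 in VCF lungs and at 3.58, 3.73 and 3.76 in Ctrl lungs, the groups apart (0.47 ± 0.13, limma adjusted p = 0.33), while Acta2, smooth muscle actin, differed by 0.01 ± 0.16. Of 20 endothelial genes 12 were higher and 8 lower, with a median of 0.09. Among the lower ones, Nos3 differed by -0.28 ± 0.13 and Pecam1 by -0.19 ± 0.30. Apln, the peptide apelin of endothelial tip cells, was at 1.83, 2.05, 2.35 and 2.24 in VCF lungs and at 1.62, 1.73 and 1.57 in Ctrl lungs (0.48 ± 0.14, limma adjusted p = 0.367), and its receptor Aplnr differed by 0.60 ± 0.25. Angpt2, which destabilizes vessels, differed by 0.42 ± 0.13. Angpt1, another angiopoietin, was also higher with the groups apart at both probes (0.485 ± 0.196 and 0.911 ± 0.413). Pgf differed by -0.385 ± 0.234. Among 16 genes of angiopoietins and vascular growth, 10 were higher and 6 lower, with a median of 0.06. Shh, the Hedgehog ligand of airway epithelium, was at -1.79, -1.90, -1.56 and -2.16 in VCF lungs and at -0.87, -1.39 and -1.23 in Ctrl lungs (-0.69 ± 0.15, limma adjusted p = 0.25), whereas Wnt2, a mesenchymal Wnt ligand, was higher in all VCF lungs (0.45 ± 0.11, limma adjusted p = 0.299). Over the 21 Wnt and Hedgehog genes the median was 0.03.

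Alveolar type 2 genes had a median of 0.00 over 15 genes. Secretory and mucin genes of the airway varied between lungs of 1 group more than between groups: their mean over the list was 0.95, 0.08, -1.66 and -0.85 in VCF lungs and -0.67, 0.20 and 0.47 in Ctrl lungs. Cardiac muscle genes varied likewise, with list means of 2.19, 1.38, 1.56 and -2.15 in VCF lungs and 0.80, -1.59 and 0.69 in Ctrl lungs, and without Ctrl replicate 2 their median was 0.02, against 0.74 with it. Adipose genes had a list mean of 2.29 in VCF replicate 1, against -0.26 to 0.61 in the other VCF lungs and -0.46 to 0.62 in Ctrl lungs. Liver genes, 9 tested, had a median of 0.69, or -0.02, 0.69 and 0.70 on slides 1, 2 and 3. Mup1, a major urinary protein made in liver, was at -0.44, -2.35, -3.36 and -1.61 in VCF lungs and at -4.93, -3.80 and -5.35 in Ctrl lungs, the groups apart (2.75 ± 1.69, limma adjusted p = 0.762). In the liver list 3 genes were higher with the groups apart, and 1, Ahsg, was lower with the groups apart (-0.719 ± 0.465). The part of these tissues in the differences above was not tested.

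**Figure D3:**
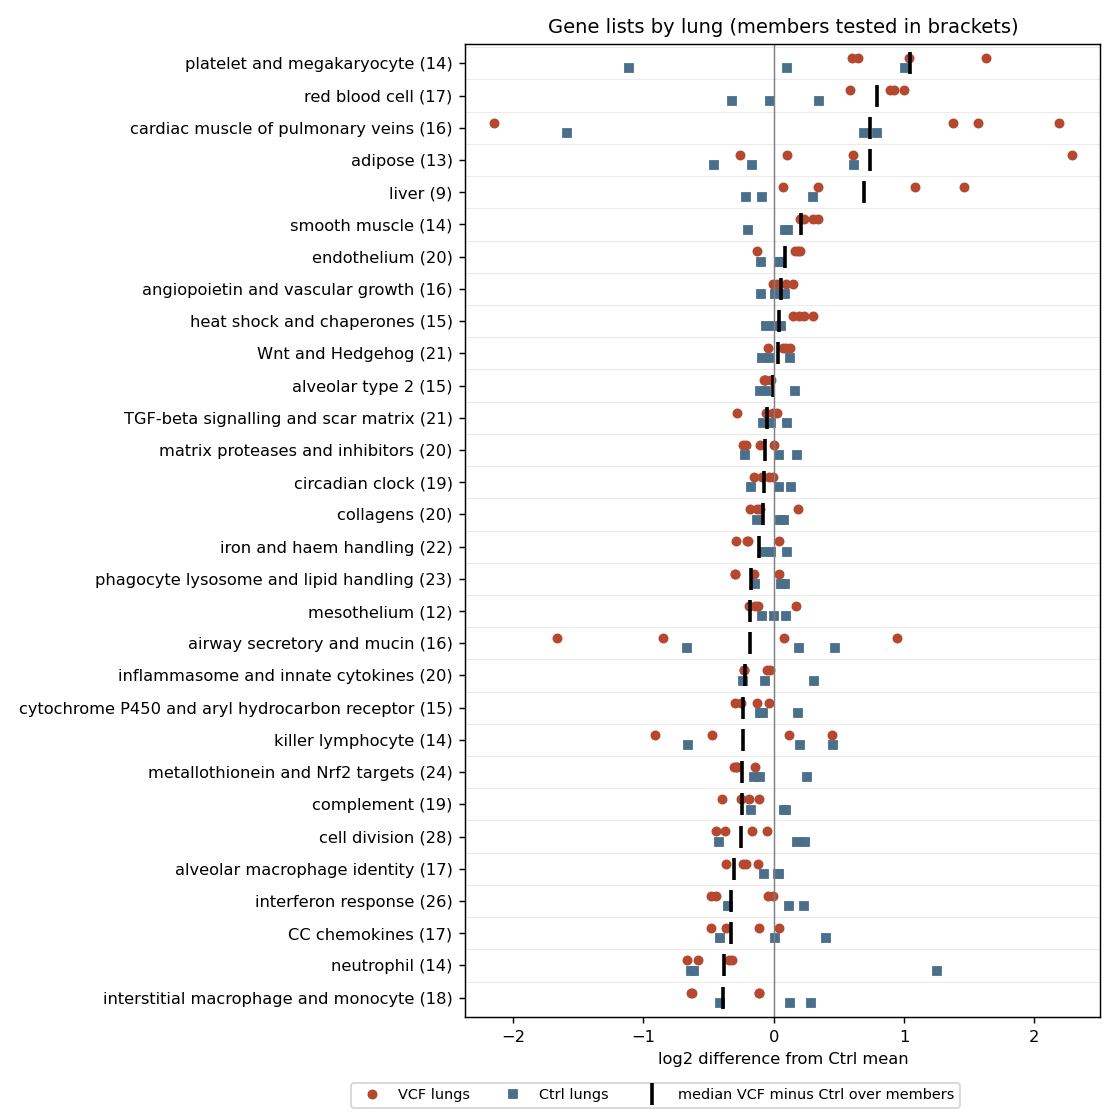
Mean log2 difference from the Ctrl mean over the members of each gene list (x axis), per lung, for 30 lists ordered by the median VCF minus Ctrl difference over members (black tick), with VCF lungs above Ctrl lungs in each row. Red blood cell means of the 4 VCF lungs lie to the right of the 3 Ctrl lungs, and most immune lists lie slightly left of 0 with overlap.

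Of the 3 probes that passed, Olfr1495 was the dimmest and AK147967 the brightest. Olfr1495 was at -4.03, -4.53, -3.72 and -4.13 in VCF lungs and at -6.31, -6.79 and -6.78 in Ctrl lungs, well above background in 4 of 4 VCF lungs and in 1 of 3 Ctrl lungs (2.52 ± 0.28, limma adjusted p = 0.0277). AK147967, a cDNA clone with no gene name here, was at -1.30, -1.72, -0.59 and -1.03 in VCF lungs and at -3.88, -3.44 and -3.96 in Ctrl lungs (2.60 ± 0.33, limma adjusted p = 0.0337). ENSMUST00000098674 was at -2.92, -2.82, -2.45 and -2.21 in VCF lungs and at -4.84, -4.63 and -4.47 in Ctrl lungs (2.04 ± 0.25, limma adjusted p = 0.0337). In all 3 the groups did not overlap. With slide as a block none of the 3 passed: the limma adjusted p was 0.119 for Olfr1495 and ENSMUST00000098674 and 0.181 for AK147967, and the 1 probe that passed was another, unnamed one. Over all alternatives the adjusted p ran between 0.000215 and 1 for Olfr1495 and between 0.0051 and 1 for both others. Taar4, a trace amine receptor, differed by 1.60 ± 0.22 (limma adjusted p = 0.0501), and Olfr1255 and Olfr1097 by 2.03 ± 0.36 and 1.69 ± 0.31. The receptor class as a whole did not follow them: of 272 olfactory and trace amine receptor probes tested, 123 were higher, 10 of them at an unadjusted p under 0.05, and the median was -0.03. Taar4 and Olfr1255 were well above background in 2 of 3 Ctrl lungs and Olfr1097 in 1 of 3. With plain background subtraction Taar4 differed by 0.62.

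Other genes of small p that were higher with the groups apart included Nfib, a lung developmental factor (0.67 ± 0.13, limma adjusted p = 0.157), Madd (1.45 ± 0.22, limma adjusted p = 0.085, at a dim probe, while its other probe differed by 0.10), Eya4 (1.67 ± 0.28), Slc22a8, an organic anion transporter (1.30 ± 0.22), Ccnjl (1.10 ± 0.20), Myh3, embryonic myosin (1.05 ± 0.20) and Cplx3 (1.57 ± 0.30), whose second probe gave -0.18. Nfib was among the brightest of these, at 2.97, 3.05, 2.95 and 3.00 in VCF lungs and at 2.15, 2.46 and 2.36 in Ctrl lungs, while its other 2 probes differed by 0.15 and 0.12. Lower genes included Adora1, the adenosine A1 receptor, at -1.41, -1.68, -1.21 and -1.12 in VCF lungs and at 0.13, -0.30 and -0.67 in Ctrl lungs (-1.08 ± 0.23, limma adjusted p = 0.228). Others were Ttyh1 (-0.85 ± 0.16), Hspbap1 (-0.81 ± 0.16), Mab21l4 (-0.60 ± 0.13), Top3a, a topoisomerase (-0.50 ± 0.11), Cdc6, a licensing factor of DNA replication (-0.73 ± 0.18), Traip (-0.55 ± 0.14), Arhgap9 (-1.25 ± 0.32), Nat8f4 (-0.76 ± 0.18) and Cd109 (-0.74 ± 0.17). The other probes of Nat8f4 and Cd109 differed by 0.01 and -0.25. Eya4 and Myh3 were also read at dim probes, with mean levels of -5.643 and -5.623, well above background in 2 of 3 Ctrl lungs. Ttyh1, at a mean level of -6.026, was well above background in 3 of 4 VCF lungs. Cd109 was so in 1 of 4 VCF lungs, and it differed by 0.058 with normexp. With plain background subtraction the dim Madd probe differed by 0.48.

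The excess of probes that were higher lay mostly with 1 kind of probe, though other kinds outside RefSeq mRNAs shared it. Probes designed on full-length mouse cDNA clones of the AK accession series, unnamed here because symbols were matched by RefSeq accession, numbered 4089 of those tested, and 20.9% were higher at an unadjusted p under 0.05 and 1.37% lower, with a median difference of 0.18. Among 21109 probes on RefSeq mRNAs the shares were 2.99% and 2.49%. Other classes lay between: 9.85% higher and 1.82% lower for cDNA clones of the BC accession series. For assembled transcripts the shares were 8.71% and 0.979%, and for other GenBank sequences 7.84% and 0.94%. The share was higher for AK probes in each bin of brightness: in 4 equal bins of all probes from dimmest to brightest, 24.3, 25.1, 7.99 and 5.82% of AK probes were higher, against 3.97, 3.82, 2.49 and 2.26% of RefSeq probes. The upper end of the AK probes was higher in each VCF lung than in any Ctrl lung. Its 90th percentile was 1.08, 1.70, 1.14 and 1.15 above the Ctrl mean in VCF lungs and 0.33, 0.55 and 0.60 in Ctrl lungs. Each Ctrl lung is part of that mean, which draws its own values toward it, so the distance between groups is partly built in. CCF lungs stood at 0.55, 1.10 and 0.87 and RCF lungs at 0.53, 0.70, 0.92 and 0.75. Within slides 1, 2 and 3, 7.7, 6.53 and 33.3% of AK probes were more than 1 higher in VCF, against 2.22, 1.25 and 4.54% of RefSeq probes, so slide 3 with VCF replicate 2 and Ctrl replicate 1 gave the most. Without Ctrl replicate 1 the share of AK probes that were higher was 9.95%, with plain background subtraction 9.24% and with normexp 0.538%, against 0.218% of RefSeq probes with normexp. In CCF and RCF lungs against the same Ctrl arrays it was 4.48% and 3.42%. The probe classes were compared after seeing the data.

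**Figure D4:**
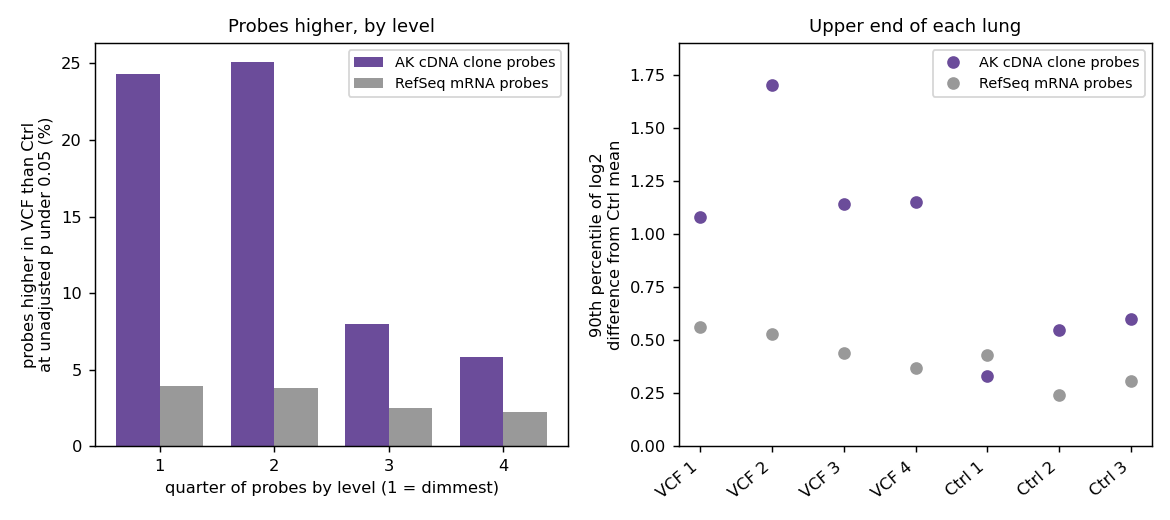
Left, percent of probes higher in VCF than in Ctrl lungs at an unadjusted p under 0.05 (y axis) in 4 equal bins of all probes by level, for AK cDNA clone and RefSeq mRNA probes. Right, 90th percentile of the log2 difference from the Ctrl mean (y axis) in each VCF and Ctrl lung. The AK points of the VCF lungs, 1.08 to 1.70, lie above those of the Ctrl lungs, 0.33 to 0.60. Each Ctrl lung is part of the Ctrl mean, so this distance is partly built in.

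Set against the mean of CCF and RCF lungs, VCF lungs had 0 probes past the adjusted threshold in limma (0%, smallest adjusted p = 0.168), with 1262 higher (4.31%) and 220 lower (0.752%) at an unadjusted p under 0.05. Without RCF replicate 3, 1 probe passed. Of AK probes 17.9% were higher, against 6.93% of BC clone probes, 6.96% of assembled transcript probes and 1.47% of RefSeq mRNA probes. Prdm8, a transcriptional regulator, was at -1.36, -1.21, -1.23 and -0.84 in VCF lungs, at -0.78, -0.45 and -0.80 in CCF lungs and at -0.04, 0.06, -0.46 and -0.05 in RCF lungs (VCF minus the mean of both -0.76 ± 0.13, limma adjusted p = 0.558). Grb10, an adaptor that restrains insulin receptor signalling, was at -3.35, -3.04, -3.33 and -3.27 in VCF lungs, at -4.92, -4.08 and -4.58 in CCF lungs and at -4.78, -4.54, -3.79 and -4.18 in RCF lungs (1.18 ± 0.22, limma adjusted p = 0.564). Its other 2 probes, 1 of them the brightest for Grb10, differed by 0.15 and -0.05 in the same contrast. Pik3r1, a regulatory subunit of PI3 kinase, differed by 0.70 ± 0.16 at 1 probe and by 0.23, 0.004 and -0.32 at its other 3. Fkbp5, a glucocorticoid-induced chaperone, differed by 0.86 ± 0.20 at 1 probe and by 0.22 and -0.22 at the other 2. Plekho2 differed by -1.0 ± 0.22 at a dim probe and by -0.35 at a brighter one. Nr0b1 was well above background in no VCF lung and in 1 of 3 Ctrl lungs, so no fold is given.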

How the data were processed

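RNA of 14 lungs was measured on 1-colour Agilent oligonucleotide arrays. The deposited scanner files hold intensity per spot, written by Feature Extraction version 10.7.3.1 as their headers state, already background-subtracted and not scaled between arrays. The deposited value table gives log2 values for 27496 probes; for 100% of them these equal, within 0.01, log2 of that intensity less a constant near the array's 75th percentile.

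Here log2 processed intensity was taken less each array's 75th percentile over non-control probes. Spots of 1 probe were averaged (41174 probes), outlier spots were dropped (122 tested probes have a missing value), and probes well above background on at least 3 of 14 arrays were tested (29269). Symbols came from RefSeq (GRCm38.p6): 24844 probes matched 1 symbol (17178 genes) and 16330 none. All 14 arrays entered 1 limma 3.58.1 fit (R 4.3.3), two-sided, with Benjamini-Hochberg adjusted p under 0.05. The series' design text calls the samples biologically independent, and the number of arrays limits the precision. The pipeline was tested on simulated data. Figures used Python matplotlib.

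56 gene lists (898 genes, 827 tested) were used, 30 of them described, each gene at its brightest probe. The members, lists and tests were chosen with earlier results of these data known. Named genes were every probe past the threshold, the 15 of smallest p in each direction with groups apart and above background in the brighter group, up to 4 of smallest p per described list, a fixed panel, and 3 in each direction against CCF and RCF; other list members, the compared probes of 1 gene and the probe classes were chosen after their values were seen. Some genes that the rule names are not reported here. Replicate numbers did not pair the arrays: residuals of the same number correlated at 0.067, -0.141 and -0.015. Alternatives were other background corrections, normalizations, filters, blocks, weights, thresholds, the deposited table, and leaving out each array. Normexp was planned on the mean spot signal, a column not used here, and took the median with an offset of 50.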

Additional observations from a re-analysis of the deposited data

Results flagged for a closer look

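In 207 groups of 4 VCF lungs examined, 12 had 1 lung far from the other 3, measured by its gap to the nearest over the whole range, and chance marks about 1 in 20. Cardiac genes of VCF replicate 4 were low, with Ryr2 at -4.32 (others -1.23 to -0.83) and Ttn at -5.19 (others -1.35 to -1.25). In the same lung Trem2, a lipid receptor of macrophages, was at 1.42 (others 0.81 to 0.91), Muc1 at -1.08 (others -0.93 to -0.90), Nr0b1 at -7.01 (others -8.65 to -8.41, all below background), and the mean over alveolar type 2 genes was -0.02 (others -0.07). In VCF replicate 1, Ccnjl was at -2.55 (others -1.85 to -1.71), Arg1 at -3.01 (others -3.26 to -3.25) and Il33 at 3.13 (others 3.27 to 3.29), with means of -0.14 over metallothionein and Nrf2 genes (others -0.30 to -0.28) and -0.13 over endothelial genes (others 0.16 to 0.20). In VCF replicate 2 Bub1 was at -1.89 (others -1.35 to -1.28).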

How the results depend on the processing

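The number of probes past the threshold in VCF against Ctrl was 3 and depended on the setting. It was 0 with normexp, quantile, cyclic loess or median scaling and without Ctrl replicate 1 and VCF replicate 1 together, 1 with slide as a block or only VCF and Ctrl arrays fitted, 5 with no filter or plain background subtraction, 6 with the deposited table, 7 with array weights and 8 at an adjusted p under 0.10. Replicate number as a block, although the numbers do not pair the arrays, gave 6. Leaving out 1 array gave 0 to 16: 0 without any 1 of the Ctrl arrays, VCF replicates 1, 3 or 4, or RCF replicates 1 or 3, 1 without RCF replicate 2, 7 without CCF replicate 3 and 16 without CCF replicate 1. Against CCF and RCF, 0 to 1 passed, and 1 without Ctrl replicate 1 and VCF replicate 1. Why was not tested, except that normexp compressed 4 arrays, among them VCF replicate 3. The range of that array from the 5th to the 75th percentile was 0.38 in log2 with normexp, against 4.53 with plain background subtraction.

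With normexp the list medians were 0.28 for red blood cell, -0.36 for alveolar macrophage, -0.10 for heat shock, -0.11 for alveolar type 2, 0.087 for Wnt and Hedgehog and 0.27 for liver. Plain subtraction gave 0.43 for red blood cell, 0.086 for Wnt and Hedgehog and 0.20 for liver. Quantile scaling gave -0.092 for alveolar type 2 and -0.048 for Wnt and Hedgehog, and cyclic loess -0.049 for the second. Median scaling, which lowers every value, gave -0.24 for iron, -0.43 for alveolar macrophage, -0.30 for phagocyte lysosome, -0.37 for metallothionein, -0.09 for heat shock, -0.36 for cytochrome P450, -0.20 for clock, -0.21 for collagens, -0.19 for proteases, -0.18 for TGF-beta, -0.13 for alveolar type 2, -0.038 for endothelium, -0.068 for angiopoietin and -0.10 for Wnt and Hedgehog. Liver was 0.022 over probes above background on all arrays, and heat shock 0.13 with slide position as a block. Without Ctrl replicate 1 and VCF replicate 1 together, the medians were 1.24 for red blood cell, 0.004 for inflammasome, -0.10 for interferon, 0.18 for angiopoietin and 0.22 for liver. Leaving out 1 array gave 0.57 to 1.10 for red blood cell, -0.33 to -0.22 for alveolar macrophage, -0.32 to -0.032 for inflammasome, -0.02 to 0.17 for angiopoietin, -0.042 to 0.105 for Wnt and Hedgehog, -0.24 to -0.064 for cytochrome P450 and -0.24 to -0.044 for proteases. Of 177 named probes, 27 changed sign in at least 1 alternative. The number of arrays and signal near background limit the dim probes most.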
